A study of Arabidopsis thaliana with 8 samples.

Results

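The locus described here is a 35-kb stretch of Arabidopsis chromosome 5, chr5:555000-590000, that holds AT5G02540, a short-chain dehydrogenase/reductase gene called SDR below, and AT5G02580, a gene for a protein of unknown function. Its members were chosen by the PIF3-binding peaks themselves: every peak in the 4 peak lists whose summit lay in this stretch was taken, which gave 14 of the 6828 deposited peaks (3, 4, 3 and 4 in replicates 1 to 4). They fell into 4 of the 1064 reproducible PIF3-binding sites, where a site is a group of summits less than 100 bp apart from at least 2 replicates. The members were thus chosen by called peaks and their summit positions, and the tags, folds and scores below belong to those same peaks. All values below are therefore descriptions with no test.

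The peaks came from 8 ChIP-seq libraries, 4 biological replicates each of P3M and WT, made from whole seedlings grown for 2 d in true darkness. According to the study's methods, all its plants were of the Columbia ecotype. P3M seedlings carry PIF3 fused to 5 copies of the Myc epitope under the 35S promoter (35S:PIF3-5xMyc), which is active in most tissues, in the pif3-3 null mutant. The labels call them overexpressing, and the PIF3 level was not measured here. WT seedlings lack the epitope and were the negative control for the anti-Myc antibody. Both genotypes received white light for 3 h at 21°C and a far-red pulse of 15 min before darkness, and each library pooled 4 immunoprecipitates of 1 biological replicate. The libraries of replicates 1 and 2 were sequenced in 2 runs each and those of replicates 3 and 4 in 1 run each. Each list compares a P3M library with the WT library of the same number, so WT has no tag count of its own in the lists.

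PIF3 is a basic helix-loop-helix transcription factor that accumulates in darkness and is degraded after the phytochromes are activated by red light. It belongs to a small group of phytochrome-interacting factors that keep seedlings in dark development. These factors bind E-boxes (CANNTG), among them the palindromic G-box (CACGTG) and the PBE-box (CACATG, read CATGTG on the other strand).

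The 4 binding sites are shown first, because their sequences carry the contrast between the site with a PBE-box and those with G-boxes. Each is the plus strand of the 201 bp around the mean summit, read from the RefSeq TAIR10.1 sequence, with G-boxes and PBE-boxes in capitals.
SDR site, chr5:566017-566217: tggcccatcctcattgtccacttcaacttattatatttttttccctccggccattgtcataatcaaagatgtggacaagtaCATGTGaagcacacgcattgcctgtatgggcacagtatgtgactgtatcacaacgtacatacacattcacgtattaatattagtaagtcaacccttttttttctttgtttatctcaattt
AT5G02580 site, chr5:579237-579437: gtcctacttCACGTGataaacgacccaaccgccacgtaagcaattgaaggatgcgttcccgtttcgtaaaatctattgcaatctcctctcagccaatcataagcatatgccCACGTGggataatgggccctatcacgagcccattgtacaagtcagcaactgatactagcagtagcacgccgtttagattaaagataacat
Site between AT5G02580 and AT5G02590, chr5:581179-581379: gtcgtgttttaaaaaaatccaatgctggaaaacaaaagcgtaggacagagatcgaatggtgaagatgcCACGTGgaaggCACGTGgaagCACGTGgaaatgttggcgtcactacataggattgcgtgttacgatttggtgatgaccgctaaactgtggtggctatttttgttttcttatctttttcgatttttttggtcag
Site between SDR and AT5G02550, chr5:571386-571586: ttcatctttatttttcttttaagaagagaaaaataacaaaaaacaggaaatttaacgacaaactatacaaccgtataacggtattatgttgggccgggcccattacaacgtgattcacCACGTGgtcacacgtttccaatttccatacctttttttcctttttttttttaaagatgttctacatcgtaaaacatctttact

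The SDR site held 1 PBE-box, which reads CATGTG on the plus strand, and no other E-box of any kind. The centre of this box lay at -16.75 bp from the mean summit (negative values are to its left, on the side of lower coordinates). The AT5G02580 site held 2 G-boxes, centred at -88.75 and 13.25 bp from the mean summit, with 96 bases between them. This window also held 3 other E-boxes, of which the nearest, CATATG, was at 5.25 bp from the mean summit. The site between AT5G02580 and AT5G02590 held 3 G-boxes in a row, with 5 and 4 bases between neighbours, centred at -29.25, -18.25 and -8.25 bp from the mean summit. The weakest site held 1 G-box, 20 bp after its mean summit. G-boxes, searched as CACGTG on both strands, were in 68.6% of the 175 sites found in all 4 replicates, in 49.9% of all 1064 sites and in 2.20% of all 201-bp tiles of the genome. At least 3 of them were in 9.14% of the sites found in all 4 replicates and in 0.0152% of the tiles. PBE-boxes, searched as CACATG on both strands, were in 70 of the 175 sites found in all 4 replicates, in 35.3% of all sites and in 9.22% of the tiles. A match is a description of the sequence only.

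The GC content was 37.3% at the SDR site and 45.8% at the AT5G02580 site, against a median of 40.8% over the sites found in all 4 replicates. For sites with a G-box and no PBE-box in all 4 replicates (89 sites), the median distance of the nearest G-box from the summit, rounded to a whole base, was 11.5 bp, and 49 of them had a closer box than the 13.5 bp of the AT5G02580 site. For the 39 sites with only a PBE-box, the median was 8.5 bp, and 28 had a closer box than the 16.5 bp of the SDR site.

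The AT5G02580 site was among the strongest PIF3-binding sites in each replicate. From replicate 1 to 4 its peak contained 217, 378, 683 and 1167 tags, where a tag is a uniquely aligned read of the P3M library. The fold enrichment over the local background was 16.48, 23.19, 14.88 and 22.99 in the same order, a mean of 19.4 ± 4.33 (SD, n = 4). By the MACS score, which is -10 times the base-10 logarithm of the p-value, it ranked 5 of 696, 4 of 2517, 4 of 526 and 1 of 3089 peaks. The score in replicate 4 was 3100, the highest value in the lists, which 6 peaks share. Tags were highest in replicate 4 and lowest in replicate 1, whereas folds were high in replicates 2 and 4 and lower in replicates 1 and 3.

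The SDR site had a strong peak in each replicate too, at a lower fold. Its peak held 173, 251, 499 and 999 tags in replicates 1 to 4. The fold was 7.32, 6.39, 8.51 and 11.55, a mean of 8.44 ± 2.25 (SD, n = 4). It ranked 24 of 696, 85 of 2517, 50 of 526 and 61 of 3089 peaks by score. By tags its rank was 47, 134, 11 and 18 in the same lists, lower than by score in replicates 1 and 2 and higher in replicates 3 and 4. The folds of the SDR site lay below those of the AT5G02580 site in all 4 replicates, and the ranges of the 2 sites over replicates did not overlap.

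Between AT5G02580 and AT5G02590, the site with 3 G-boxes had 132, 163, 242 and 498 tags in replicates 1 to 4. Its fold was 8.58, 5.67, 4.73 and 8.27, a mean of 6.81 ± 1.91 (SD, n = 4), so its range overlapped that of the SDR site. In replicate 1 it was above the SDR site (8.58 against 7.32), and in the other replicates it was below. In score it ranked 39 of 696, 161 of 2517, 320 of 526 and 188 of 3089, so that replicate 3 placed it far lower than the others did. The number of G-boxes did not order the sites of the locus: 3 boxes went with a mean fold of 6.81 and 2 boxes with 19.4.

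The fourth site, between SDR and AT5G02550, was present in replicates 2 and 4 only. Its peaks held 83 and 220 tags at folds of 5.01 and 3.29. In replicate 4 it ranked 3033 of 3089 peaks by score, near the lower limit of the list. Its false discovery rate was 69.5% in replicate 2 and 100% in replicate 4.

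Of the 4 sites, 3 were present in all 4 replicates, where 16.4% of all reproducible sites were. This count rests on the same peaks that chose the sites and is read no further. The false discovery rate that MACS gave was under 5% for the AT5G02580 peak in replicates 1, 2 and 4 and for the SDR peak in replicates 2 and 4. Over all peaks of replicates 1 to 4, the share with a rate under 5% was 1.44%, 4.57%, 0.19% and 5.73%. In replicate 3 the rate was 100% at all 3 sites that this replicate had, the AT5G02580 site included, although the score of that peak was 1168.

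**Figure D1:**
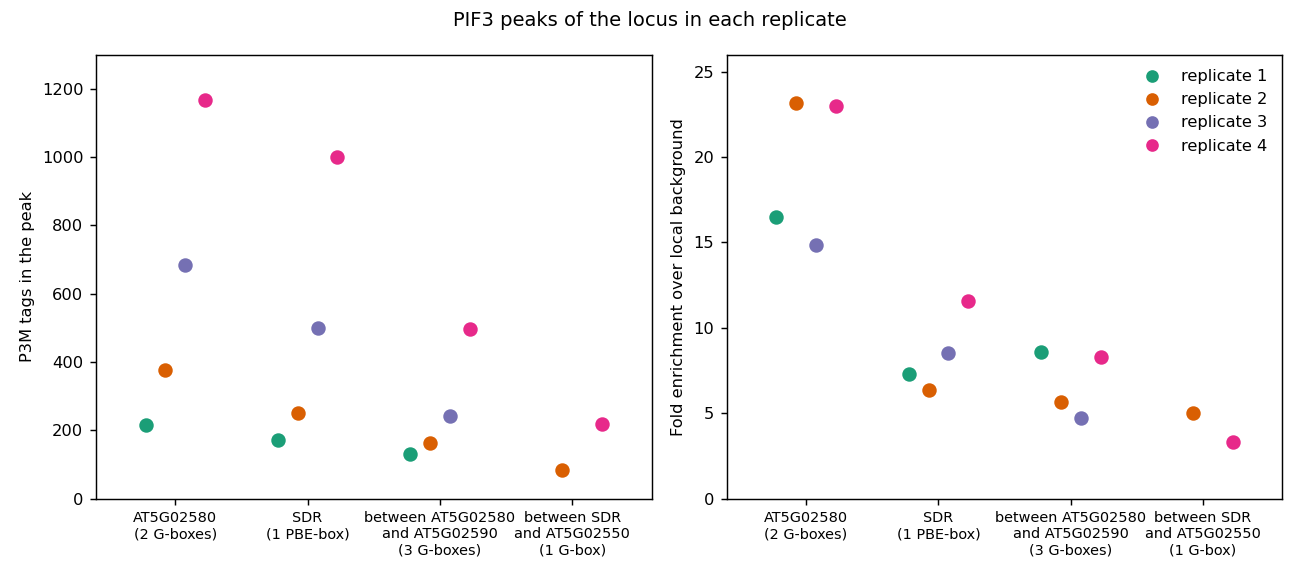
P3M tags (left) and fold enrichment (right) of the peaks at the 4 sites, 1 point per replicate, with both vertical axes linear and starting at 0. The AT5G02580 site has folds of 14.88 to 23.19, above the 6.39 to 11.55 of the SDR site, while their tags differ less, and the site between SDR and AT5G02550 has points for replicates 2 and 4 only.

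The G-box site of AT5G02580 and the PBE-box site of SDR were then compared within each replicate. The AT5G02580 peak held 1.25, 1.51, 1.37 and 1.17 times as many tags as the SDR peak in replicates 1 to 4, a geometric mean of 1.32. The 95% intervals of these ratios, from exact Clopper-Pearson limits of the share of tags, were 1.02 to 1.54, 1.28 to 1.77, 1.22 to 1.54 and 1.07 to 1.27. They cover counting error only, and PCR copies are not independent molecules. They do not allow for the choice of both sites by these same peaks, so they are not a test of the difference. The ratio of folds was larger, at 2.25, 3.63, 1.75 and 1.99, a geometric mean of 2.31. Tags per base of peak length had a ratio of 1.34 to 1.78. So the size of the difference depended on the measure, from 1.32 times in tags to 2.31 times in fold, and its direction did not.

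AT5G02580 peaks were shorter than SDR peaks in each replicate. They spanned 592, 600, 1128 and 1115 bp at AT5G02580, against 695, 710, 1177 and 1283 bp at SDR. The difference was -103, -110, -49 and -168 bp, a mean of -107.5 ± 48.7 bp (SD, n = 4). At both sites the peaks of replicates 3 and 4 were the long ones. Peaks of these replicates were longer in general, with median lengths of 503, 531, 548.5 and 592 bp in the whole lists of replicates 1 to 4. The length in replicates 3 and 4 over that in 1 and 2 was 1.88 at AT5G02580 and 1.75 at SDR. Its median over the 175 sites found in all 4 replicates was 1.2.

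Summits were placed closely at both sites. They lay within 15 bp of each other at AT5G02580 (SD 6.13 bp) and within 14 bp at SDR (SD 6.40 bp), while the site with 3 G-boxes had a spread of 12 bp (SD 5.68 bp). The median spread over the 175 sites found in all 4 replicates was 27 bp. It was 26 bp for sites with only the G-box and 24 bp for sites with only the PBE-box. Of the 175 sites, 38 had a smaller spread than the AT5G02580 site and 30 a smaller one than the SDR site.

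The added length in replicates 3 and 4 was one-sided and pointed in opposite directions at the 2 sites. At AT5G02580 the peaks reached 306, 297, 859 and 819 bp to the left of the summit in replicates 1 to 4, but 285, 302, 268 and 295 bp to the right. At SDR they reached 439, 510, 454 and 529 bp to the left, but 255, 199, 722 and 753 bp to the right. Measured by the positions of the peak ends, both peaks of replicates 3 and 4 ran at least 513 bp farther left than those of replicates 1 and 2 at AT5G02580, and at least 477 bp farther right at SDR.

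Both extensions held PBE-boxes. On the left of the AT5G02580 site a PBE-box lay at -587.75 bp from the mean summit, and on the right of the SDR site 2 of them lay at 462.25 and 511.25 bp from it, all inside the peaks of replicates 3 and 4 only. The lists give each peak a single summit, so they cannot show whether these stretches had one of their own. The site with 3 G-boxes had no such extension, with 516, 569, 613 and 649 bp in replicates 1 to 4. Among the 175 sites found in all 4 replicates, 10 (5.71%) reached at least 400 bp farther to one side in replicates 3 and 4 than in replicates 1 and 2, a limit set after the values were seen, and 7 of these had a G-box or PBE-box in the added stretch. None of the 175 reached that much farther in replicates 1 and 2. The 10 sites include those of both members. Of all 201-bp tiles of the genome, 2.20% held a G-box and 9.22% a PBE-box. The added stretches are longer than a tile, and the share for stretches of their length was not computed, so 7 of 10 is a description only. Replicates 3 and 4 are also those sequenced in 1 run in place of 2, and the part of that difference in the peak lengths was not tested.

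**Figure D2:**
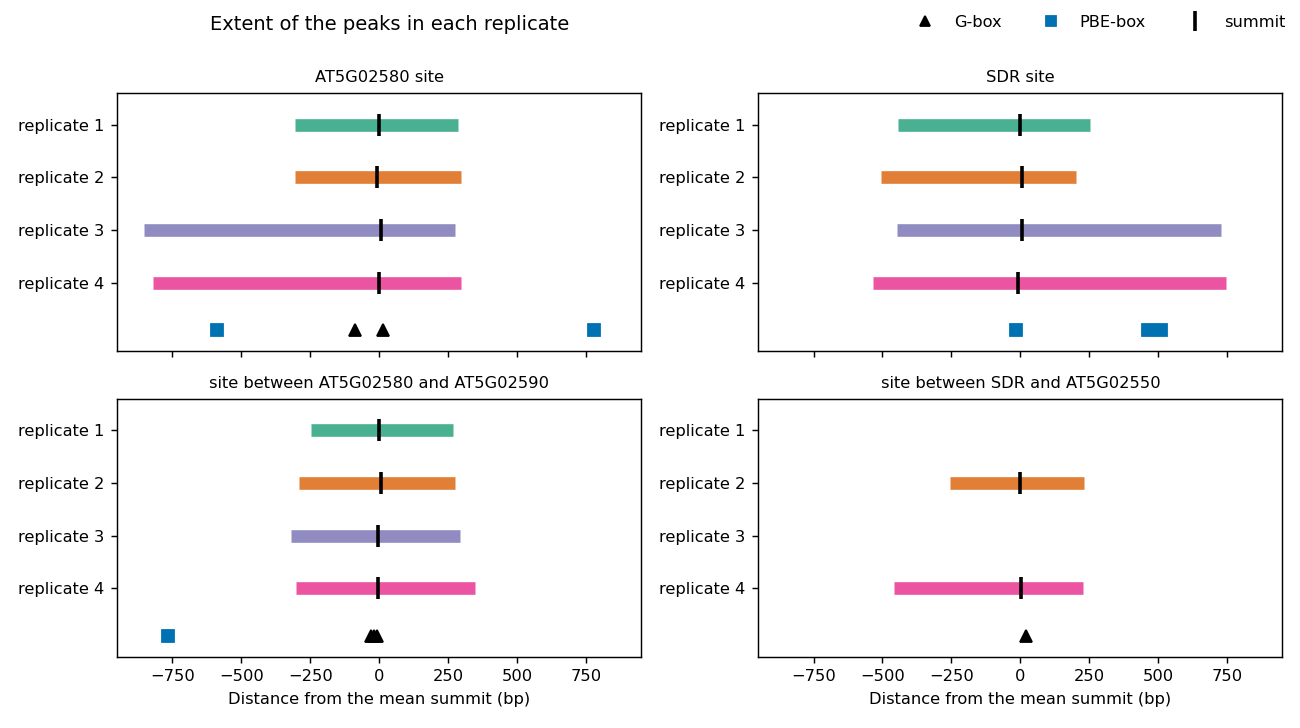
Extent of each peak (bar) and its summit (black tick) by replicate at the 4 sites, against the distance from the mean summit in bp, with G-boxes as triangles and PBE-boxes as squares below the bars. At AT5G02580 the bars of replicates 3 and 4 run 859 and 819 bp to the left, and this extension covers a single PBE-box. At SDR they run 722 and 753 bp to the right, and this extension covers more than a single PBE-box.

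Against the other sites found in all 4 replicates, both members ranked high in tags and differed in fold. Divided by the median of its list, the AT5G02580 peak had 2.49, 3.47, 4.28 and 6.17 times the median tags in replicates 1 to 4, which placed its geometric mean of 3.89 at rank 5 of 175. The SDR peak had 1.99, 2.30, 3.13 and 5.29 times, and its geometric mean of 2.95 was at rank 11 of 175 and at rank 2 of the 39 sites with only a PBE-box. Divided by the median of the 175 sites in place of that of the whole list, a choice made after seeing the data, the tags were 2.21, 2.63, 3.36 and 2.94 times the median at AT5G02580 and 1.77, 1.74, 2.46 and 2.52 times at SDR, and replicate 4 no longer stood above the others at AT5G02580. In mean fold the AT5G02580 site was at rank 6 of 175, whereas the SDR site was at rank 60 of 175 and at rank 12 of the 39. In mean peak length the SDR site, at 966 bp, was at rank 13 and the AT5G02580 site, at 859 bp, was at rank 25, where the median was 587 bp.

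By class, the median folds of sites found in all 4 replicates were 6.85, 7.44, 6.14 and 11.67 with only the G-box, against 6.71, 6.95, 6.12 and 11.24 with only the PBE-box, in replicates 1 to 4. The AT5G02580 site was thus 1.97 to 3.12 times its class median in fold, and the SDR site 0.92 to 1.39 times its own. The SDR site was below its class median in replicate 2 and above it in the others.

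**Figure D3:**
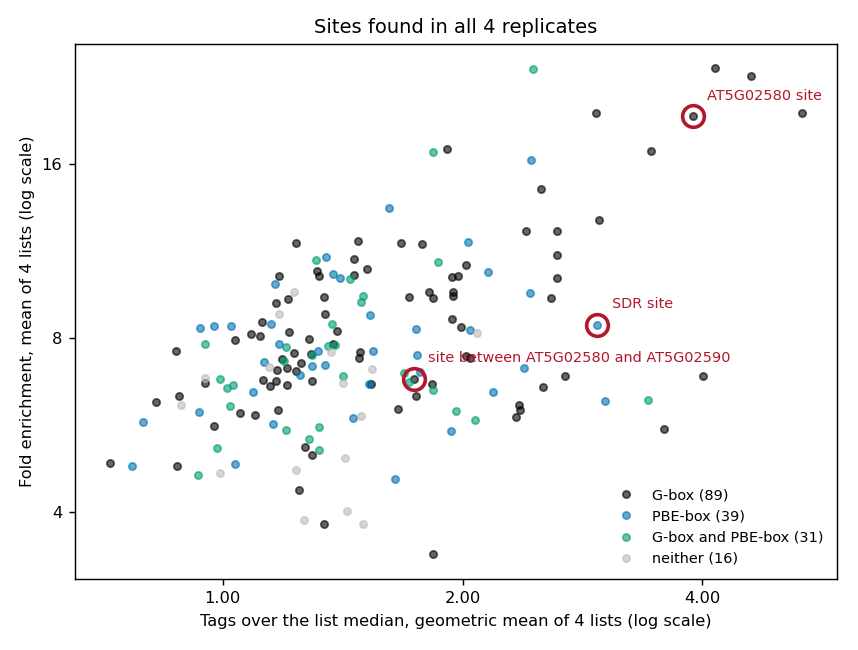
Fold enrichment (mean of 4 replicates) against tags over the list median (geometric mean of 4 replicates) for the 175 sites found in all 4 replicates, both axes logarithmic, coloured by motif class with the number of sites in the key. The 3 ringed sites are those of the locus: AT5G02580 at 3.89 and 19.4, SDR at 2.95 and 8.44, and the site between AT5G02580 and AT5G02590 at 1.74 and 6.81.

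All 4 sites were intergenic. The stretch holds 19 annotated genes, of which 14 are protein-coding, 3 are long non-coding RNAs and 2 are tRNAs. Peaks of at least 1 replicate covered 10.8% of it, and peaks of all 4 replicates 4.98%.

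The AT5G02580 site lay 407 bp before the annotated start of AT5G02580 (chr5:579744-580792, plus strand). For 2 of its 3 transcripts the start is farther in, and the site was then 515 bp upstream. The first coding base was 628 bp from the mean summit. AT5G02580 encodes a protein of 91 residues. To the left, the nearest gene was HTA12, which encodes a histone H2A and ends 2121 bp away. AT5G02570, a histone-family gene on the opposite strand inside the last part of the HTA12 gene, starts 2161 bp from the site. By the study's written rule, under which a gene goes with a site if its start is within 5 kb downstream with no other annotated gene between, HTA12 stood between, and the site went with AT5G02580 alone. The study applied the rule only to intergenic sites with a G-box or PBE-box. Here it was applied to intergenic sites with or without such a box, with the genes of RefSeq TAIR10.1.

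The SDR site lay 2308 bp before the start of SDR (chr5:568425-570973, plus strand), for which 1 transcript is annotated, and 2492 bp before its first coding base. SDR encodes a protein of 331 residues with the NAD(P)-binding Rossmann fold of dehydrogenases and reductases. The site was much closer to the start of another gene on the minus strand: AT5G02530, which encodes an RNA-binding protein with an RNA recognition motif, starts 192 bp from the mean summit. The intergenic stretch between these 2 divergent genes is 2499 bp long. By the same rule the site went with both genes. Its peaks reached 251, 315, 256 and 345 bp into AT5G02530 in replicates 1 to 4, and in no replicate did they reach SDR. Which of the 2 genes, if either, the site acts on cannot be told from peak positions.

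Over the 138 intergenic sites found in all 4 replicates, 47 (34.1%) went with 2 genes by this rule, 72 with 1 and 19 with none. The 166 distances from site to start had a median of 1173 bp. Of these, 18.1% were no larger than that of AT5G02580 and 78.9% no larger than that of SDR.

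The site with 3 G-boxes lay 487 bp after the end of AT5G02580 and 1771 bp before AT5G02590, a gene for a protein with tetratricopeptide repeats. It went with AT5G02590 by the rule. It was 1942 bp from the AT5G02580 site, so that the 2 sites flank AT5G02580 on both sides, and in each replicate their peaks were separate, with 1344 to 1410 bp between them. Of the 175 sites found in all 4 replicates, 13 (7.43%) had another such site within 2 kb. In tags the AT5G02580 site was 1.64, 2.32, 2.82 and 2.34 times the site downstream of it in replicates 1 to 4. The fourth site lay 513 bp after the end of SDR and 1484 bp from the end of AT5G02550, a gene for an unknown protein on the minus strand. Both genes end towards it, and it went with no gene.

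Most G-boxes of the stretch lay in a site, and most PBE-boxes lay in no peak. The 35 kb held 9 G-boxes, of which 6 lay in a site and 3 in no peak. It held 14 PBE-boxes, of which 1 lay in a site, 3 in the extensions of replicates 3 and 4 described above, and 10 in no peak. Over the genome, 13056 of 592765 tiles of 201 bp held a G-box and 54650 a PBE-box, whereas 531 and 376 of the 1064 sites did. The stretch was chosen by its peaks, so its own counts are a description and no result about these boxes. Of the 3 G-boxes without a peak, 2 were intergenic, beside HSC70-1 and at -1919.75 bp from the mean summit of the AT5G02580 site, and 1 was inside SDR. Of the 10 PBE-boxes without a peak, 5 were intergenic. One of these was in the intergenic stretch of the SDR site, at 1559.25 bp from its mean summit on the side of SDR.

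**Figure D4:**
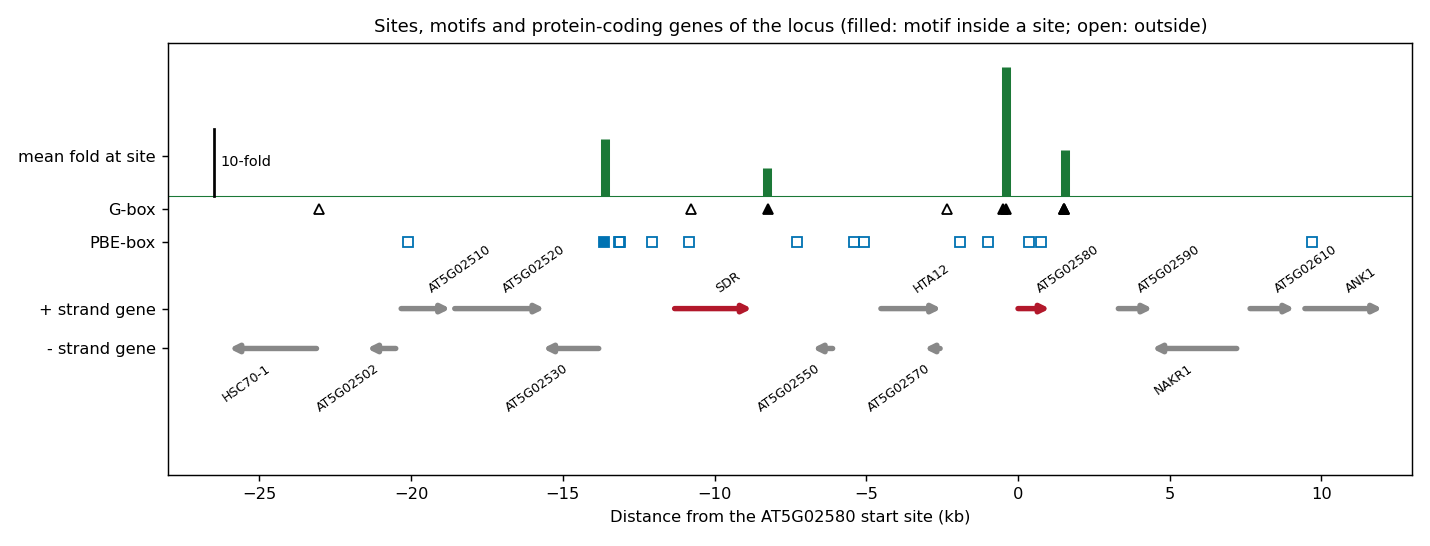
Map of the locus by distance from the AT5G02580 start in kb, with the mean fold of each site as a green bar (the black bar is 10-fold), motifs as triangles and squares (filled inside a site, open outside) and the protein-coding genes as arrows, SDR and AT5G02580 in red. The highest bar, 19.4-fold, stands just before AT5G02580, and the SDR bar of 8.44-fold stands next to AT5G02530. In this stretch, chosen by its peaks, 1 of 14 PBE-boxes is filled against 6 of 9 G-boxes.

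The other 10 protein-coding genes of the stretch went with no site, among them HSC70-1, which encodes a heat shock cognate protein, NAKR1, AT5G02502, AT5G02510, AT5G02520, AT5G02610 and ANK1. Outside the stretch, the nearest peaks were weak. To the left, replicate 2 had a peak of 70 tags at a fold of 3.62, 7444 bp before its start. To the right, replicate 4 had one of 289 tags at a fold of 3.70, 34677 bp past its end. Just inside, the first and last sites, SDR and the one with 3 G-boxes, were about 11 and 8.7 kb from the edges. The nearest reproducible sites outside were 325232 bp to the left and 122826 bp to the right.

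The study's own ChIP-qPCR primers for the 2 genes each matched the genome once and fell inside the peaks of these sites. The forward primer of each began before the 201-bp window of its site. The SDR amplicon, chr5:566013-566131, held the mean summit and the PBE-box. The AT5G02580 amplicon, chr5:579226-579341, held the mean summit and the far G-box but not the G-box nearest the summit, which starts 7 bp after its end. The qPCR values were not used here.

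For likeness, the tags of each site in the 4 replicates were divided by the list median and compared on the log2 scale by Euclidean distance over 4 values. The sites of other loci most like the AT5G02580 site were next to ASY3 (distance 0.48), which is the site upstream of PIL1, then AT1G02350 (0.49) and BBX29 (0.63). Those most like the SDR site were next to CKX5 (0.40), HAT2 (0.50) and AT3G15220 (0.68). All 6 had a G-box and no PBE-box, also those most like the PBE-box site. The same held for 89 of the 175 sites found in all 4 replicates, from which they were picked by tags alone. The 6 are thus a description and no result about the boxes. Likeness in tags did not extend to fold, since the site at AT1G02350 had 223, 384, 489 and 1122 tags in replicates 1 to 4 at folds of only 5.59, 4.62, 5.02 and 7.08.

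Of all 27444 protein-coding genes, 2.81% went with a site by the rule and 10.3% had a site within 5 kb of either end, so a family of this size without a site is no result about the family. For SDR, none of the 10 most similar proteins of Arabidopsis, which share 29.5% to 68.5% of aligned residues with it, was encoded by a gene that went with a site by the rule. The closest, AT2G37540, had no site within 5 kb of either end, and 4 of the 10 genes had one in that range that did not meet the rule. For AT5G02580, the 5 similar proteins found share 34.4% to 60.7% of aligned residues. One of their genes, AT5G04090, went with a site, which had a G-box, came from 3 replicates and lay 106 bp before its start. AT3G55240, of the highest alignment score, had a site within 5 kb that did not meet the rule.

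SDR and AT5G02580 are 2 of 13 genes that the study both called bound and put in its M class of genes with rapid, opposite responses to light and shade, a choice that rested in part on these peaks. By the rule used here 10 of the 13 went with a site, and for 8 the best site was present in all 4 replicates. The best site had only a G-box for 9 of the 13, both boxes for 2 and only a PBE-box for 2, SDR and AT4G35720. For ATHB52, AT4G36010 and AT4G35720 this best site did not meet the rule. Of all 1064 sites, 392 had only a G-box, 140 both boxes, 238 only a PBE-box and 294 neither. The study called a gene bound only if its site had a box, so the counts for the 13 are a description. Among the 8, AT5G02580 ranked 2, 2, 1 and 1 in tags and 2, 2, 2 and 3 in fold in replicates 1 to 4, beside PIL1, a PIF-like bHLH gene, with folds of 19.78, 23.38, 16.44 and 34.08. SDR ranked 3, 4, 3 and 3 in tags but 5, 7, 4 and 4 in fold. Its site was the only one of the 8 without a G-box. CKX5, a cytokinin oxidase gene whose tags of 165, 315, 467 and 877 were the most like those of SDR, had folds of 13.69, 16.31, 14.35 and 33.93. The RNA levels of these genes were not analysed here.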

How the data were processed

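Per the labels, the authors processed reads with CASAVA 1.7.0, aligned them to TAIR9 with Bowtie 0.12.7 and called peaks with MACS 1.4.0rc2 at a p-value cutoff of 1e-05, with WT as the control of the P3M library of its number. The tag count of each peak is used as deposited by the authors and counts P3M reads in the whole peak, so longer peaks hold more. The fold enrichment at the summit over the local background, the score and the false discovery rate in percent are also the authors' deposited MACS values. Library totals are not in the lists, so depth is unknown. Summits less than 100 bp apart were joined, and sites needed 2 lists. Sequence and genes came from RefSeq TAIR10.1. No peak ran past a chromosome end, and the study's ChIP-qPCR primers matched inside the peaks of the named sites. Genes were named if annotated in the stretch, nearest to 1 of the 3 sites most like a member's, among up to 10 relatives (BLASTP 2.17.0, E of 1e-10 or lower) or in the M class. The members and lists were chosen with earlier results of these data known. Python 3.11.15 and numpy 2.4.6 were used, and site calling was checked on simulated lists.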

Additional observations from a re-analysis of the deposited data

Results flagged for a closer look

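Both values flagged here belong to the site with 3 G-boxes between AT5G02580 and AT5G02590 and were found by Dixon's ratio over 4 replicates, with a critical value of 0.829, in 24 groups of values; chance flags about 1 in 20. The score of this site was at or above 39.4% of the peaks in replicate 3, against 94.5%, 93.6% and 93.9% in replicates 1, 2 and 4. Its tags were 2.63 times the list median in replicate 4, against 1.52, 1.50 and 1.52 times in replicates 1 to 3. Divided by the median of the sites found in all 4 replicates in place of the median of the list, a choice made after seeing the data, the tags were 1.35, 1.13, 1.19 and 1.25 times in replicates 1 to 4, and Dixon's ratio was 0.43.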

How the results depend on the processing

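Of 81 values under an alternative, 74 stayed within the spread of the replicates or within 1.5 times the main count, and 7 moved further. Some of the 74 could not move, such as values of a site without a replicate in which it has no peak. None changed sign, which most of them, as counts, positions, percentiles or distances, could not do. The 4 sites became 3 with sites in at least 3 replicates, with a score of at least 100, or without replicate 2 or 4, and the site between SDR and AT5G02550 was the one lost each time. Tags of AT5G02580 over SDR, 1.32 times, were 1.50 times per base of peak length and 2.31 times as fold, and 1.26 to 1.37 with each replicate left out. The mean percentile of the AT5G02580 site was 99.7 by score and 98.8 by tags. Its distance to the start was 515 bp with the farthest transcript start. With each replicate left out, the summit spread was 7 to 15 bp at AT5G02580 and 3 to 12 bp at the site with 3 G-boxes. The cause of these differences was not tested. No paired analysis was possible because P3M and WT libraries of 1 number are already joined in each list, and the comparison of the 2 sites within replicates is a description. The lists hold neither coverage between peaks nor library totals, so a box without a peak is a box with no peak called at this depth.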
